A study of Oryza sativa with 8 samples.

Results

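BURP2, BURP16 and BURP17 are 3 rice genes of the BURP family, and their transcript levels are described here in shoots of submerged and non-submerged rice. The members are all probe sets that the platform annotation pairs with exactly 1 gene carrying one of these names, which gave 4 of the 57258 probe sets that are not controls, for 3 of 17905 genes. BURP2 (gene ID 4338119) has 2 of them, called a_at and x_at here after the ends of their names. BURP16 (4348595) and BURP17 (4349896) have 1 each. The genes were picked for this description with their levels on these arrays already known. Their differences are therefore given as measurements with a standard error (SE) and with no test.

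The study compared M202(Sub1), a line of the japonica cultivar M202 that carries the submergence tolerance gene Sub1A by introgression, with M202, which lacks it, and submerged with non-submerged plants of each. The 4 groups of 2 arrays are submerged M202(Sub1), non-submerged M202(Sub1), submerged M202 and non-submerged M202. All plants were grown in soil in a greenhouse and were 14 days old when submergence began. Submerged plants spent 24 h fully under water before their aerial tissue was taken. The titles place these plants at day 1 and non-submerged plants at day 0, so submergence and 1 day of age cannot be told apart. The labels state neither how many plants an array stands for nor what separated the biological replicates, so an SE or p-value measures only the spread between these samples. In whole aerial tissue, fewer cells of a type and less RNA per cell cannot be told apart.

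BURP proteins are plant proteins named after BNM2, USP, RD22 and the beta subunit of polygalacturonase 1, the first members found. They share a C-terminal BURP domain that carries repeated cysteine and histidine pairs, behind a signal peptide. RD22 of Arabidopsis is a classic drought and abscisic acid responsive gene, and the beta subunit of polygalacturonase 1, studied in tomato, binds the enzyme that cuts pectin in the cell wall. Rice BURP16 is related to that beta subunit. Rice BURP13, also called RAFTIN1, acts in the tapetum of the anther.

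Values are the deposited log2 levels, which run from a floor of 2.22 to 16.9 over all arrays. A single probe set can also have a floor of its own above 2.22. All 4 member probe sets passed the filter on low values, a mean of at least 2.23 over the 8 arrays. A difference of 1 is a 2-fold change, and a difference against a group at a floor is limited by that floor. The median difference over all 34355 tested probe sets was 0 in both submergence comparisons. Centring the arrays on the poly(A) control transcripts spiked into the labelling reaction moved this median by -0.34 in M202(Sub1) and by -0.16 in M202. As a check of the tissue, 6 of 8 probe sets of 4 genes of Rubisco small subunits and light harvesting proteins were above 10 on every array.

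BURP16 had the widest range of the members. In submerged M202(Sub1) it had 15.60 and 15.76, against 2.48 and 2.48 in non-submerged M202(Sub1). In submerged M202 it had 15.96 and 15.89, against 2.48 and 2.48 in non-submerged M202. All 4 submerged arrays thus stood far above all 4 non-submerged ones, and the 4 low values lay within 0.005 of the lowest that this probe set gave.

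The difference was 13.20 ± 0.06 in M202(Sub1) (log2, SE, n = 2 per group) and 13.45 ± 0.06 in M202, both limited by the floor of the probe set. No other of the 34355 tested probe sets had a more positive difference in either genotype. For orientation, limma called 48.9% of tested probe sets in M202(Sub1), 27.7% higher and 21.2% lower, and 42.9% in M202, 22.9% higher and 20.0% lower. Both submerged arrays were above both non-submerged ones for 36.3% of tested probe sets in M202(Sub1) and for 33.0% in M202. BURP16 was chosen on these values, so nothing is read from its place among them.

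Between the genotypes BURP16 was nearly level. After submergence M202(Sub1) lay below M202 by a difference of -0.24 ± 0.06, and the arrays of the groups did not overlap. Groups lay apart in this direction for 22.5% of tested probe sets, and in the other for 27.8%. With spike-in centring the same difference was -0.46. Before submergence both genotypes were at the floor of the probe set, where no difference can be seen. In the order of the group levels, submerged M202 stood highest and submerged M202(Sub1) next, and the non-submerged groups shared the bottom.

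BURP17 was far lower in M202(Sub1) than in M202 under both treatments. In submerged M202(Sub1) it had 2.22 and 2.22, against 13.97 and 13.88 in submerged M202. In non-submerged M202(Sub1) it had 2.22 and 2.60, against 12.06 and 12.15 in non-submerged M202. The 4 M202(Sub1) arrays sat at or close to the common floor while the 4 M202 arrays were all above 12.

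The genotype difference of BURP17 was -11.70 ± 0.13 in submerged plants and -9.70 ± 0.13 in non-submerged plants (log2, SE, n = 2 per group). Both are limited by the floor, and no other tested probe set had a more negative genotype difference in either condition. Limma called 10.1% of tested probe sets lower and 10.6% higher in M202(Sub1) after submergence (51.1% of the calls higher, and 41.8% to 55.4% with 1 array left out), and 1.23% lower and 0.684% higher before it. Before submergence the groups lay apart for 20.0% of them with M202(Sub1) lower and for 14.5% with it higher. The count of probe sets called in either direction before submergence, 657 or 1.91%, was unsteady. It was 1769 and 1461 without replicate 1 or 2 of non-submerged M202(Sub1), 1275 and 1107 without replicate 1 or 2 of non-submerged M202, and 395 and 396 without replicate 1 or 2 of submerged M202(Sub1), and 448 without either array of submerged M202. The share of these calls that were higher in M202(Sub1) was 35.8%, but 69.7% and 70.6% without replicate 1 or 2 of non-submerged M202(Sub1), and 17.6% and 15.8% without replicate 1 or 2 of non-submerged M202. The value of BURP17 lay between -9.88 and -9.51 when a non-submerged array was left out. Leaving out a submerged array cannot change it.

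Within M202 the level of BURP17 was higher under water, by 1.82 ± 0.13, with both submerged arrays above both non-submerged ones. The arrays lay apart in this direction for 33.0% of tested probe sets in M202, and 1511 had a more positive difference. In M202(Sub1) the difference was -0.19 ± 0.13, and the groups overlapped. It rests on the array at 2.60, replicate 2 of non-submerged M202(Sub1): without it the groups are level at the floor, and without replicate 1 the difference is -0.38. With spike-in centring the difference was -0.53, but that centring also shifts values at the floor, where no lower level can be seen. Subtracting the effect in M202 from the effect in M202(Sub1) left -2.01 ± 0.18, and this too is limited by the floor in M202(Sub1). BURP17 is read by 1 probe set. A transcript that is missing in M202(Sub1) and one whose sequence no longer matches the probes cannot be told apart.

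The genes around BURP17 were examined after its values had been seen, since the rule for the members did not use them. On chromosome 11, the 20 protein-coding genes on each side in the RefSeq order of assembly ASM3414082v1 held 24 tested probe sets of 16 genes. Their genotype differences ran from -0.66 to 0.44 in submerged plants and from -0.46 to 0.39 in non-submerged plants. In submerged plants limma called 3 of the 24 (1 higher and 2 lower), or 12.5%, beside 20.7% of all tested probe sets. In non-submerged plants it called 1, or 4.17%, beside 1.91% of all. None of the 24 reached a 2-fold difference in either condition, but some were near the floor, where a 2-fold fall cannot be seen. The probe set called in non-submerged plants averaged 2.47 in M202(Sub1) and 2.78 in M202. Another probe set of the same gene differed by 0.27 there. The nearest measured neighbours, VATP-P1 at 4 genes before BURP17 and ALDP at 3 genes after it, had differences of -0.07 ± 0.07 and, over the 3 probe sets of ALDP, -0.01 ± 0.32 to 0.05 ± 0.04 in non-submerged plants.

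**Figure D1:**
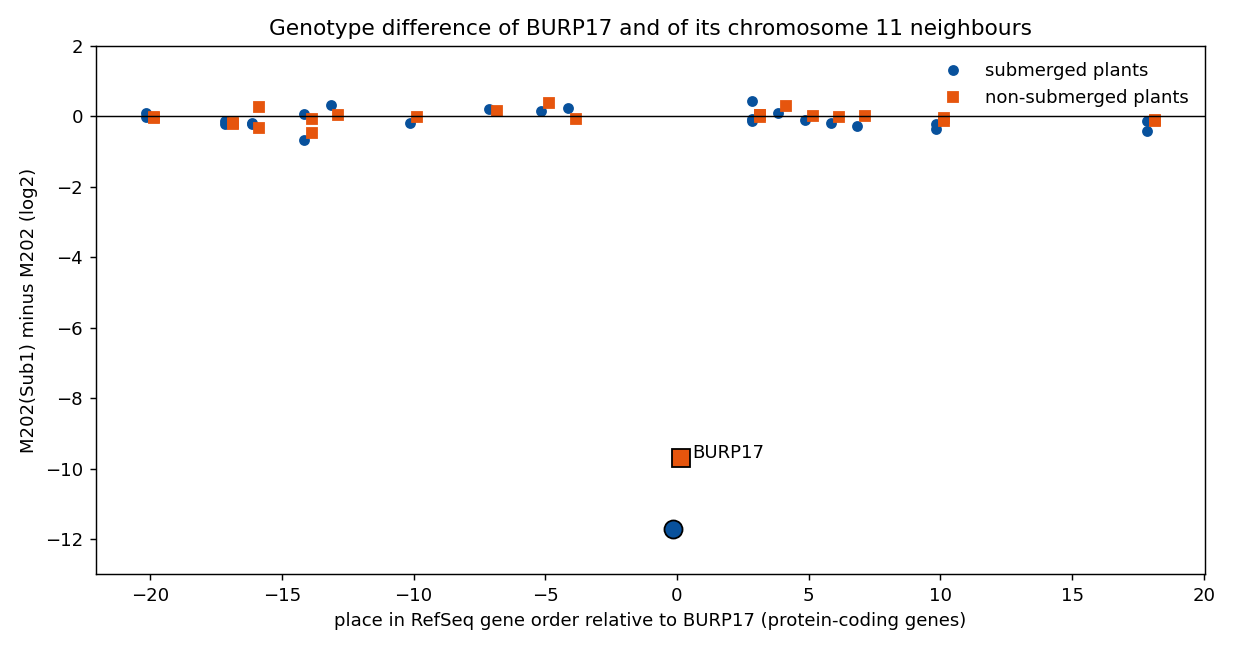
Genotype difference (M202(Sub1) minus M202, log2) of BURP17, drawn large with a black edge, and of the tested probe sets of the 20 protein-coding genes on each side, against their place in the gene order. Circles are submerged plants and squares non-submerged plants, and the neighbours lie between -0.66 and 0.44 while BURP17 lies at -11.70 and -9.70.

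BURP2 was lower under water in both genotypes. On the a_at probe set, whose probes match transcript variants of 1 gene, it had 8.87 and 8.70 in submerged M202(Sub1), against 14.26 and 14.25 in non-submerged M202(Sub1). The same probe set had 10.21 and 10.42 in submerged M202, against 14.33 and 14.28 in non-submerged M202. All 4 submerged arrays were below all 4 non-submerged ones, and the submerged M202(Sub1) arrays were the lowest. No array was near the floor, so these differences are not limited by it.

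On the x_at probe set, some probes of which can also match other sequences, BURP2 had 5.22 and 4.65 in submerged M202(Sub1), against 10.74 and 10.72 in non-submerged M202(Sub1). In submerged M202 it had 6.55 and 6.56, against 10.74 and 10.72 in non-submerged M202. As on the a_at probe set, submerged M202(Sub1) was lowest and submerged M202 next, with a wider spread between the submerged M202(Sub1) arrays, and here the non-submerged groups overlapped. The a_at value minus the x_at value lay between 3.52 and 4.05 on the 8 arrays, and the probe sets correlated at r = 0.999 over them. They read the same RNA samples and are no replicates of each other.

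After submergence BURP2 differed by -5.47 ± 0.09 in M202(Sub1) on the a_at probe set, a 44.3-fold lower level, and by -3.99 ± 0.09 in M202, a 15.9-fold lower level (log2, SE, n = 2 per group). The x_at probe set gave -5.80 ± 0.18 and -4.17 ± 0.18. Both submerged arrays were below both non-submerged ones for 29.5% of tested probe sets in M202(Sub1) and for 29.9% in M202. More negative differences than on the a_at probe set were found for 98 tested probe sets in M202(Sub1) and for 257 in M202.

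The genotypes differed in BURP2 under water. Submerged M202(Sub1) lay below submerged M202 by a difference of -1.53 ± 0.09 on the a_at and -1.62 ± 0.18 on the x_at probe set, and the arrays did not overlap on either, beside 22.5% of tested probe sets apart in this direction. In non-submerged plants the genotype differences were -0.05 ± 0.09 and 0.00 ± 0.18, each smaller than its SE. There the arrays lay apart on the a_at probe set, beside 20.0% of tested probe sets with M202(Sub1) lower, and overlapped on the x_at probe set. The interaction, the effect of submergence in M202(Sub1) less its effect in M202, was -1.48 ± 0.12 on the a_at and -1.63 ± 0.26 on the x_at probe set. Limma called 12.3% of tested probe sets in the interaction, 5.93% lower and 6.36% higher. Higher ones made up 51.8% of these calls, and 38.9% to 61.1% with 1 array left out.

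**Figure D2:**
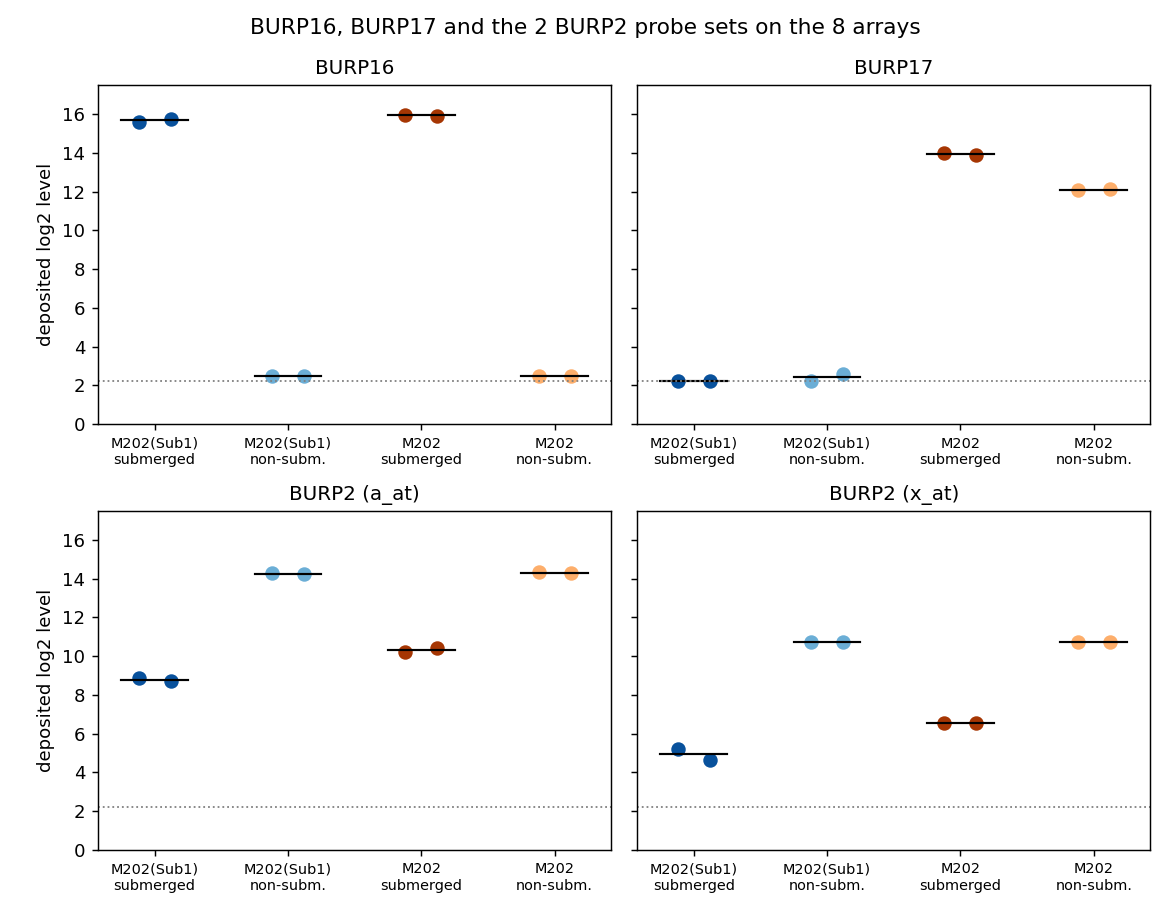
Deposited log2 level of BURP16, BURP17 and both BURP2 probe sets on each of the 8 arrays, with a bar at each group mean (n = 2) and a dotted line at the common floor of 2.22. BURP16 is at 15.60 or above in submerged and at 2.48 in non-submerged plants, BURP17 is near the floor in M202(Sub1), and BURP2 is lowest in submerged M202(Sub1).

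The members thus differed from each other in where they were high, and the RefSeq table places them on different chromosomes, BURP2 on 5, BURP16 on 10 and BURP17 on 11. Over the 8 arrays, BURP16 and the a_at probe set of BURP2 correlated at r = -0.97, and BURP17 correlated with them at 0.09 and 0.10. These are descriptions over arrays that fall into 4 groups.

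**Figure D3:**
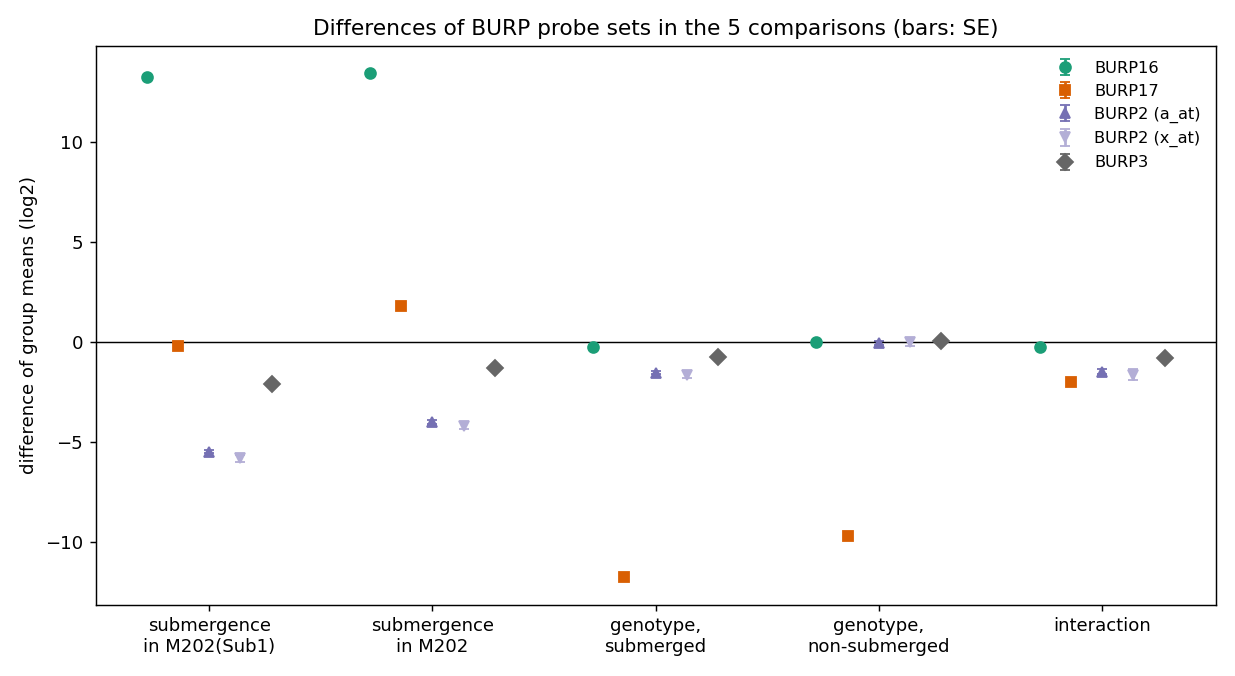
Differences of group means (log2) of the members and of BURP3 in the 5 comparisons, submergence as submerged minus non-submerged, genotype as M202(Sub1) minus M202, and the interaction as the effect in M202(Sub1) less the effect in M202. Bars are the SE from the limma fit and are mostly smaller than the symbols. BURP16 stands at 13.20 and 13.45 for submergence, BURP17 at -11.70 and -9.70 for genotype, and BURP2 and BURP3 are below 0 for submergence in both genotypes.

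The gene table lists 9 BURP genes, and 7 of them have a probe set paired with 1 gene. BURP4 and BURP14 were not analysed here. The 4 other BURP genes with a probe set are BURP3, BURP10, BURP12 and BURP13, and they were tested, since they were not picked for their values. BURP10 was at the floor of 2.22 on all 8 arrays and did not pass the filter. Of the 3 tested, limma called 2 lower after submergence in M202(Sub1) and 1 in M202, beside 21.2% and 20.0% of all tested probe sets.

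BURP3 fell in both genotypes. It had 10.63 and 10.80 in submerged M202(Sub1), against 12.86 and 12.80 in non-submerged M202(Sub1). It had 11.45 and 11.50 in submerged M202, against 12.82 and 12.75 in non-submerged M202. Submerged M202(Sub1) was lowest and submerged M202 next, as for BURP2, and the non-submerged groups overlapped at the top.

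BURP3 fell by 2.12 ± 0.07 on the log2 scale in M202(Sub1) (limma adjusted p = 1.37e-05) and by 1.31 ± 0.07 in M202 (limma adjusted p = 7.72e-05). Its interaction was -0.81 ± 0.09 (limma adjusted p = 0.00991). In submerged plants it was lower in M202(Sub1), with a difference of -0.76 ± 0.07 (limma adjusted p = 0.0023), and in non-submerged plants the difference was 0.04 ± 0.07 (limma adjusted p = 0.909). The profiles of BURP3 and of the a_at probe set of BURP2 correlated at r = 0.994 over the 8 arrays, with smaller steps in BURP3.

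BURP12 had low levels throughout, 3.30 and 3.43 in submerged M202(Sub1) against 3.81 and 3.93 in non-submerged M202(Sub1), and 3.80 on all 4 M202 arrays. It fell by 0.50 ± 0.06 in M202(Sub1) (limma adjusted p = 0.00185), while its difference in M202 was -0.00 ± 0.06 (limma adjusted p = 1). Its interaction was -0.50 ± 0.09 (limma adjusted p = 0.0304), but 8 of 13 alternative settings did not call it, and its limma adjusted p ran from 0.0268 to 0.0859 over all 13. BURP13, the tapetum gene, lay between 2.22 and 2.28 on every array and was not called in any of the 5 comparisons. Some alternatives, centring on the spike-ins among them, called it. That centring shifts values at the floor with all others. It gave -0.19 in M202, where the median of all tested probe sets moved by -0.16. For a probe set at the floor such a call does not show a lower level.

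**Figure D4:**
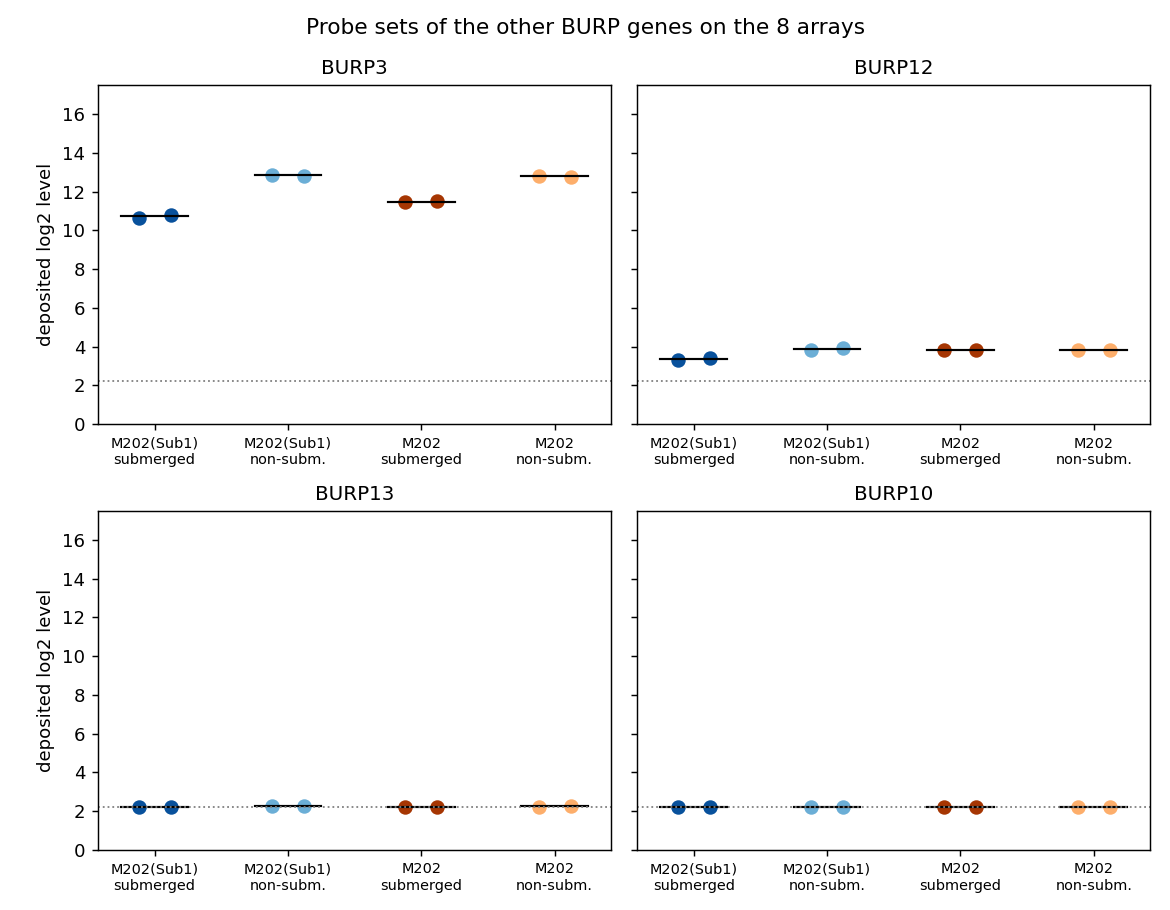
Deposited log2 level of BURP3, BURP12, BURP13 and BURP10 on the 8 arrays, drawn as for the members. BURP3 is lowest in submerged M202(Sub1) at 10.63 and 10.80, BURP12 stays below 4, and BURP13 and BURP10 lie on or near the floor line.

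Because BURP16 is related to a subunit that binds polygalacturonase, genes of pectin turnover were looked at by name. The name search found 4 genes with 1 tested probe set each, PGIP-1, OsPMEI8, OsPMEI28 and PGL1. These are genes named as inhibitors and PGL1, and no gene named as a polygalacturonase or pectin methylesterase was found. Limma called 1 higher and 2 lower in each genotype, with medians of -0.50 in M202(Sub1) and -0.37 in M202 beside 0 for all probe sets. Over all tested probe sets 27.7% were called higher and 21.2% lower in M202(Sub1), and 22.9% and 20.0% in M202, and with 4 probe sets nothing is read from the counts. PGIP-1, listed also as FOR1 and a polygalacturonase inhibiting protein, averaged 11.98 ± 0.03 in submerged M202(Sub1), against 5.47 ± 0.53 in non-submerged M202(Sub1) (SD, n = 2). It rose by 6.52 ± 0.32 in M202(Sub1) (limma adjusted p = 5.77e-05) and by 5.72 ± 0.32 in M202 (limma adjusted p = 0.000115). Its interaction was 0.80 ± 0.46 (limma adjusted p = 0.374).

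OsPMEI8, an inhibitor of pectin methylesterase, moved the other way. It had 3.55 and 3.53 in submerged M202(Sub1), against 9.87 and 9.85 in non-submerged M202(Sub1), and fell by 6.32 ± 0.10 (limma adjusted p = 2.42e-06). In submerged M202 it had 6.60 and 6.89, against 9.99 and 9.99 in non-submerged M202, and fell by 3.24 ± 0.10 (limma adjusted p = 1.62e-05). Its interaction was -3.08 ± 0.14 (limma adjusted p = 0.00108). The third called gene, OsPMEI28, fell by 1.00 ± 0.09 in M202(Sub1) and by 0.72 ± 0.09 in M202. The last, PGL1, was near the floor, and it is also listed as ILI6, so its name alone brought it into the list.

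Drought and abscisic acid genes formed the second list, because RD22 responds to both. The list had 11 tested of 12 probe sets, from 8 genes. Limma called 5 lower and 2 higher in M202(Sub1), with a median of -1.08, and 7 lower and 2 higher in M202, with a median of -2.78. The shares over all tested probe sets were 21.2% lower and 27.7% higher in M202(Sub1), and 20.0% lower and 22.9% higher in M202. With only probe sets of a mean of at least 5 tested, 3 were called lower in each genotype. They were the brightest probe set of Dhn1, the brighter of RAB21 and that of RAB16C. Apart from salT, no other probe set of the list had such a mean. Both higher ones were probe sets of salT, a salt-induced lectin gene, which rose by 3.57 ± 0.10 and 3.40 ± 0.06 in M202(Sub1) and by 1.63 ± 0.10 and 1.56 ± 0.06 in M202.

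In the interaction limma called 6 probe sets of that list higher and 1 lower, beside 6.36% higher and 5.93% lower of all tested probe sets, with a median of 1.67 beside 0.02 for all. The higher ones were both probe sets of salT, both of RAB21, LEA19 and RAB16B, and they were no common response. SalT rose more in M202(Sub1), while the others fell less there, from lower non-submerged levels. LEA19 averaged 2.26 in submerged M202(Sub1) and 2.66 in submerged M202, and the dimmer RAB21 probe set 2.37 and 2.38. Falls to such levels are limited by the floor. The lower one was 1 of 3 probe sets of the dehydrin gene Dhn1, with -1.0 ± 0.14 (limma adjusted p = 0.0146), the same sign as BURP2 and BURP3. RAB21, another dehydrin gene, had 1.73 ± 0.17 (limma adjusted p = 0.00645) on the brighter of its 2 probe sets. On that probe set RAB21 had 3.99 and 3.99 in submerged M202(Sub1), against 3.86 and 3.99 in submerged M202. Non-submerged plants had 6.90 and 7.09 in M202(Sub1) and 8.79 and 8.54 in M202. The genotypes thus lay apart in RAB21 before submergence and not after it. All submerged values lay between 3.86 and 3.99, the lowest of this probe set. A floor of its own may therefore limit the interaction of RAB21 here too. Dhn1, on the called probe set, had 4.58 and 4.42 in submerged M202(Sub1), against 5.58 and 5.76 in submerged M202.

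The genes whose profile over the 8 arrays lay nearest to each member were found among 2778 tested probe sets with a gene symbol. The measure was the root mean square (RMS) difference, in log2 units, between profiles centred on their own means. Dhn1 lay nearest to BURP2, at 0.14 on the a_at and 0.26 on the x_at probe set, with r = 0.998 and 0.997. Next to it on both probe sets were SAT4, the beta-glucosidase BGLU16, the 4-coumarate CoA ligase-like gene 4CLL7 and the actin depolymerizing factor ADF-11, at 0.26 to 0.49. Profiles close to that of BURP2, in shape and in size, thus existed among the named genes.

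Nearest to BURP16 was CPDK2, listed also as PPDK2, a pyruvate phosphate dikinase, at an RMS difference of 0.90 (r = 0.996). CDKE-1, a cyclin-dependent kinase, followed at 1.11, the protein phosphatase gene OsPP2C45 at 1.17, cap2 at 1.72 and the isocitrate lyase gene ICL at 2.42. Of these, CPDK2 differed by 12.64 in M202(Sub1) and 11.15 in M202 after submergence, both smaller than the values of BURP16. Between submerged M202(Sub1) and submerged M202, CPDK2 differed by 1.19, CDKE-1 by 0.46, OsPP2C45 by 1.58 and cap2 by 0.09. ICL differed there by -1.84, and BURP16 by -0.24. For BURP17 the nearest of these named genes were far away. They were OsVDAC1, a mitochondrial outer membrane channel, at 3.23 (r = 0.970) and NAS1, a nicotianamine synthase, at 4.09 (r = 0.769). SDH7, NAC45 and RH2 came next, at 4.47 to 4.58. The genotype difference of OsVDAC1 was -4.33 in submerged and -4.66 in non-submerged plants, less than that of BURP17. Probe sets without a symbol were not in this search. Of all 34355 tested probe sets, 26 were at least 5 lower in M202(Sub1) in both conditions, BURP17 among them, and 5 at least 5 higher. Another of the 26, not paired with 1 gene, differed by -10.36 in submerged and -9.66 in non-submerged plants. A large genotype difference was thus not particular to BURP17.

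**Figure D5:**
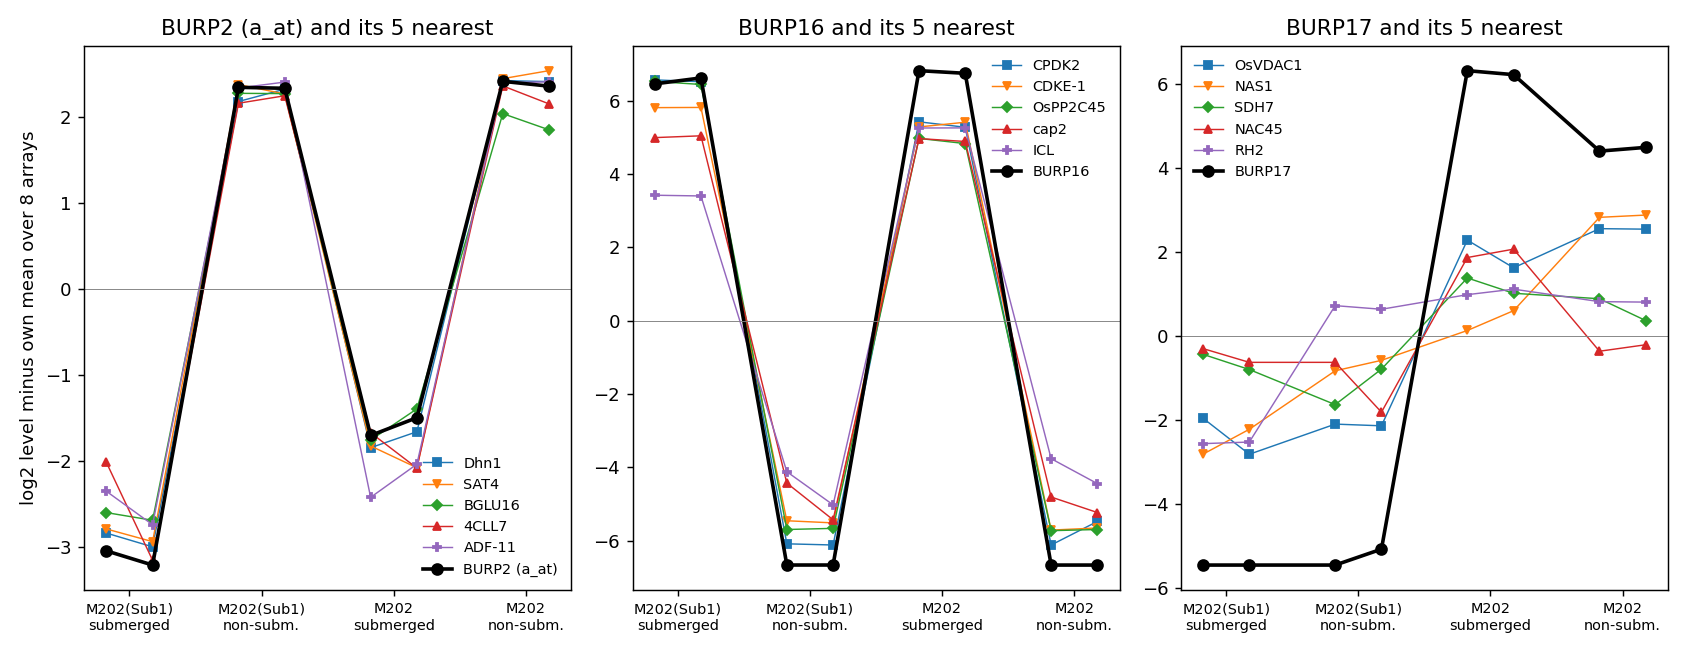
Log2 level minus the probe set's own mean over the 8 arrays, for the a_at probe set of BURP2, for BURP16 and for BURP17 (black) and for the 5 named genes nearest to each (coloured lines), with 2 arrays per group. The lines nearly coincide for BURP2, share the rise under water with smaller steps for BURP16, and stay well inside the range of BURP17.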

How the data were processed

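Levels were measured with Affymetrix rice arrays, 1 array per sample and 8 in all. The authors deposited log2 values, 1 per probe set and array. Per the submitters' processing notes the tools were GCRMA and MAS5, with nothing on which did what; no genome build is named there. The floor of 2.22, shared by all arrays, held 37.3% to 38.8% of the values of an array. Arrays have no read depth, and 2 per group limits the precision.

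Of 57381 probe sets, 123 controls were set aside. The platform annotation pairs 22436 of the others with 1 gene, 95 with several and 34727 with none listed. All 17905 genes matched the RefSeq table of assembly ASM3414082v1, used for names, chromosomes and gene order only. Names come from its symbols or synonyms that are not clone or locus tags.

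Values were used as deposited. Probe sets with a mean at or above the 40th percentile, 2.23, were tested, 34355 in all. All 8 arrays entered a group-means model in limma 3.58.1, run in R 4.3.3 (lmFit, eBayes with an intensity trend, 4 residual and 0.99 prior degrees of freedom). A call is a Benjamini-Hochberg adjusted p below 0.05. An SE from limma uses the pooled spread, which values held at a floor make smaller. The fit was tested on simulated data. Tables used Python 3.11.15 and pandas 2.3.3.

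The members and lists were chosen with earlier results of these data known. Named are the members, every other BURP probe set, the 5 nearest named profiles of each member, and called extremes of the lists of pectin and drought genes. The neighbours of BURP17, the probe sets at least 5 apart between the genotypes, OsPMEI28, PGL1, LEA19 and RAB16B were added after values were seen. A search for markers of root tissue matched no symbol. Replicate numbers are shared by the groups, but only 1 of 6 pairs of groups had a correlation of replicate differences over 0.1 (0.01 to 0.18), so they were not taken as pairs. Alternatives were other filters, scalings, a replicate block, no trend and leaving out each array.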

Additional observations from a re-analysis of the deposited data

Results flagged for a closer look

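The submergence response differed between the genotypes by the limma interaction test for 2 of the other BURP genes. BURP3 had an interaction of -0.81 ± 0.09 (limma adjusted p = 0.00991, n = 2 per group), with a larger fall in M202(Sub1), and all 14 alternatives kept the call (adjusted p from 0.000341 to 0.0383). BURP12 had -0.50 ± 0.09 (limma adjusted p = 0.0304) at levels below 4, and 8 of 13 alternatives did not keep the call. Groups of 2 arrays are too small to look for single deviating samples.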

How the results depend on the processing

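None of the 20 member values changed direction by more than 0.1 under 14 alternatives each. Many of these could not change a value. The other filters, the replicate block and the fit without a trend leave a difference of group means as it is. So does leaving out an array of a group outside the comparison. Only the scalings and leaving out an array of a compared group could move it. Centring on the poly(A) spike-ins moved several beyond the replicate spread. It shifts values at a floor with all others. For submergence in M202(Sub1) it gave 12.86 for BURP16, -0.53 for BURP17 and -5.81 for BURP2 (a_at). In M202 it gave 13.28, 1.66, -4.15 and, for BURP2 (x_at), -4.34. For genotype in submerged plants it gave -0.46 for BURP16, -11.92 for BURP17 and -1.74 for BURP2 (a_at), and for the interaction -0.42 for BURP16 and -1.66 for BURP2 (a_at). In non-submerged plants it gave -0.036 for BURP2 (x_at) and -0.038 for BURP16. Centring on the median of expressed probe sets gave 13.39 for BURP16 and -4.23 for BURP2 (x_at) in M202, and 0.025 and 0.027 between the genotypes in non-submerged plants. Spike-in centring raised the calls to 26526 for submergence in M202(Sub1), against 16808, and to 14017 for genotype in submerged plants, against 7123. Higher calls then made up 25.7% instead of 56.6% in M202(Sub1), 37.3% instead of 53.5% in M202, 13% instead of 51.1% for genotype in submerged plants and 23.3% instead of 51.8% in the interaction. Without a filter, which tests more probe sets, interaction calls were 2650, against 4223. Leaving out 1 array gave 395 to 1769 genotype calls in non-submerged plants, against 657. With the replicate number as a block there were 16707 calls for submergence in M202(Sub1), 14587 in M202, 6678 and 462 for genotype in submerged and non-submerged plants, and 3636 for the interaction, and no BURP call changed. BURP12 lost its genotype call in submerged plants without replicate 2 of submerged M202 (limma adjusted p = 0.051). The cause of these changes was not tested.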
